A study of Mus musculus with 24 samples.

Results

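Fibcd1, Mpped1, Wfs1, Nectin3, Bok and Iyd are 6 genes used to tell apart the fields of pyramidal neurons in the hippocampus, the first 3 named for CA1 and the last 3 for CA3. They were taken by symbol from a table of 33902 gene symbols, and all 6 were found. Here they were followed in the neurons of CA3, the type named Exc-CA3, by single-nucleus RNA sequencing (snRNA-seq) and by single-nucleus ATAC sequencing (snATAC-seq), which measures open chromatin. Values of the other cell types were not used here, so nothing below compares the fields with each other. The tissue was the ventral hippocampus of males of 2 inbred mouse strains, C57BL/6J (B6) and DBA/2J (D2), which were adults aged 10 to 16 weeks and for which the labels name no treatment and no engineered allele. Each strain had 2 libraries per assay, and each library pooled tissue of about 2 animals. The nuclei for snRNA-seq were sorted on NeuN, a protein of neuronal nuclei, so that neurons and other cells were mixed in set amounts, and those for snATAC-seq were sorted on a DNA stain and not on NeuN. The libraries are named by the numbers that their columns carry, 2 and 3.

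The pyramidal layer of the hippocampus is divided into fields that differ in their inputs, and the signal that leaves the dentate gyrus passes first to CA3 and from there to CA1. Genes whose transcripts stop at a border between fields have long been used to draw that border. Fibcd1 encodes a membrane receptor that binds acetylated molecules, Mpped1 a protein of the metallophosphoesterase family, and Wfs1 wolframin, a protein of the endoplasmic reticulum that is mutated in Wolfram syndrome. Nectin3 encodes an immunoglobulin-like adhesion molecule of cell junctions, Bok a member of the BCL-2 family of apoptosis regulators, and Iyd the enzyme that frees iodide from iodotyrosines in the thyroid.

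In the GENCODE annotation of GRCm38 the genes lie at chr2:31813290-31846005 on the minus strand (Fibcd1), chr15:83779467-83858494 on the plus strand (Mpped1), chr5:36966104-36989205 on the minus strand (Wfs1), chr16:46387706-46498525 on the minus strand (Nectin3), chr1:93685660-93695764 on the plus strand (Bok) and chr10:3540240-3554877 on the plus strand (Iyd), and no other annotated gene overlapped any of them. Their promoters, taken as 250 bases before and 50 after the RefSeq start in GRCm38.p6, differed widely in CpG content. The first start of Mpped1 held 59 CpG dinucleotides, and 0.1% of 32851 promoters held as many. The promoters of Fibcd1, Nectin3 and Wfs1 held 46, 40 and 30, reached by 1.65%, 3.91% and 11.7% of promoters. Bok held 16 (33% of promoters had as many), Iyd 6 (56.4%) and the second start of Mpped1 only 3 (76.7%). Printed here, 5′ to 3′ on the strand of the gene with each CpG in capitals, are some of these promoters. That of Nectin3 lies in the single peak whose accessibility passed the test between strains. That of Wfs1 ranked higher in accessibility than in transcript, and the first start of Mpped1 lower in accessibility than in CpG content. That of Iyd is the poorest in CpG among genes with 1 start.
Nectin3, chr16:46496918-46497217: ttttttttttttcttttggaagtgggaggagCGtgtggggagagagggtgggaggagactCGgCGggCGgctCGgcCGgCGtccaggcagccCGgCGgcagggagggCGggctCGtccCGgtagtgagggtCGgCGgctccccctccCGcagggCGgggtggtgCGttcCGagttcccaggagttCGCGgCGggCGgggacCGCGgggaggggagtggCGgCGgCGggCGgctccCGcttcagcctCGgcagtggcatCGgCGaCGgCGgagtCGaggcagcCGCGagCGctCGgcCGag
Wfs1, chr5:36988933-36989232: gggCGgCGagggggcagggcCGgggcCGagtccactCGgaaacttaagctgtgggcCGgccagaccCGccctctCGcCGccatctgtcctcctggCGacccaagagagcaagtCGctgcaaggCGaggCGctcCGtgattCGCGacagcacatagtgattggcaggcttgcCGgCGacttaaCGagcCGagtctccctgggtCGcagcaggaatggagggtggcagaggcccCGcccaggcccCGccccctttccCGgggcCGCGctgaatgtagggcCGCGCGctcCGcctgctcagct
Mpped1 first start, chr15:83779773-83780072: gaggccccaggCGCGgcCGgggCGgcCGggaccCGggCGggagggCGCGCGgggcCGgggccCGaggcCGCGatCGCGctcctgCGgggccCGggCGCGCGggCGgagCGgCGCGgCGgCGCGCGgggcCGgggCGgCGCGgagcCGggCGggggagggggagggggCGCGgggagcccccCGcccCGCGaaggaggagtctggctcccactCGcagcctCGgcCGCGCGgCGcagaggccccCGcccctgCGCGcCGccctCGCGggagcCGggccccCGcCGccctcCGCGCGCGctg
Iyd, chr10:3540024-3540323: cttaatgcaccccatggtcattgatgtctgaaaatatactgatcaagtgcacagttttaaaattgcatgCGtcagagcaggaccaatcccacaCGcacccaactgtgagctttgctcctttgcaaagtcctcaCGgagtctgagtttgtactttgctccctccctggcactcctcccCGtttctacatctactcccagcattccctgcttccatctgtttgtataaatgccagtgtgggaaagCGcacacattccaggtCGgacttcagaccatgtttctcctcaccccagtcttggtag

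The total of Exc-CA3 in a library ranged from 4267129 to 7195661 counts in snRNA-seq and from 14193352 to 21265101 in snATAC-seq. Levels are CPM, a gene's counts divided by the scaled total of Exc-CA3 in that library and multiplied by 1e6. The authors clustered these nuclei and named the types by their transcripts, so marker sums describe the type and cannot check its name. A CA3 list (Grik4, Cpne4, Socs2) summed to 1442 to 1640 CPM and a CA1 list (Pou3f1, Man1a, Spink8) to 101 to 110 CPM. A list of dentate granule neurons (Prox1, C1ql2, Dsp) summed to 4.68 to 6.64 CPM. For a list of inhibitory neurons (Gad1, Gad2, Slc32a1) the sum was 5.04 to 7.00 CPM. Most of the CA1 sum was Man1a, a mannosidase gene, with 82.8 ± 3.87 CPM (SD, n = 4), while Pou3f1, a transcription factor gene, had 0.839 ± 0.253. Most of the CA3 sum was Grik4 (862 CPM) and Cpne4 (607 CPM), while Socs2, at 77.2 ± 5.50 CPM, was below Man1a. These sums were not divided by gene length. No gene of these lists was at 0 over the 4 libraries.

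The genes named for CA3 were led by Nectin3, and those named for CA1 were all low in these neurons. Divided by the exons of each gene, the level was 19.8 CPM per kb for Nectin3, 8.29 for Bok, 5.001 for Iyd, 1.099 for Mpped1, 0.969 for Fibcd1 and 0.738 for Wfs1. Among the 16021 tested genes of known length, 12.1% had a level per exon kb at least that of Nectin3, 30.6% that of Bok and 46.0% that of Iyd. The shares for the CA1 genes were 85.3% (Mpped1), 87.4% (Fibcd1) and 91.2% (Wfs1). Since reads of nuclei fall in introns as well, the level was also divided by the whole span of the gene. On that scale the order became Nectin3 (2.28 CPM per kb), Bok (1.51), Iyd (0.555), Fibcd1 (0.141), Wfs1 (0.121) and Mpped1 (0.0597). The 3 CA3 genes kept their order and Mpped1, with a span of 79028 bases, moved from the highest to the lowest of the CA1 genes. The shares of genes at least as high per span kb were 19.4% (Nectin3), 30.2% (Bok), 63.0% (Iyd), 88.3% (Fibcd1), 89.5% (Wfs1) and 94.7% (Mpped1). The libraries were made with a 3′ kit, and whether counts grow with either length was not tested.

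Nectin3, the adhesion gene, measured 256 and 246 CPM in B6 and 260 and 248 in D2, a mean of 252 ± 6.88 CPM (SD, n = 4) on 5785 counts. Its 4 libraries were close to one another and the strains overlapped. Bok, the apoptosis gene, measured 14.8 and 17.2 CPM in B6 and 15.5 and 13.5 in D2 (15.3 ± 1.56, on 351 counts), again with overlap of the strains. Iyd, the deiodinase gene, measured 6.48 and 6.83 CPM in B6 and 9.55 and 9.61 in D2 (8.12 ± 1.70, on 181 counts). Both D2 libraries of Iyd stood above both B6 libraries, and the gap between the strains was wider than that between libraries of a strain.

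Mpped1 measured 3.80 and 3.58 CPM in B6 and 5.77 and 5.72 in D2 (4.72 ± 1.19, on 105 counts), and was thus the CA1 gene in which the strains did not overlap. Fibcd1, the receptor gene, measured 3.94 and 4.61 CPM in B6 and 4.14 and 5.72 in D2 (4.604 ± 0.796, on 103 counts). Wfs1 measured 2.25 and 3.24 CPM in B6 and 2.70 and 2.98 in D2 (2.79 ± 0.423, on 63 counts). In Fibcd1 and Wfs1 the strains overlapped. In counts summed over nuclei, few nuclei with the transcript and little of it in each cannot be told apart. Markers of other cells were also counted in these columns. In single libraries the astrocyte list (Aqp4, Slc1a3, Gja1) summed to 29.2 to 34.1 CPM. The microglial list (Csf1r, C1qa, Cx3cr1) summed to 30.04 to 37.3 CPM. Levels of the CA1 genes, and of Bok (15.3 CPM) and Iyd (8.12 CPM), are therefore not shown to be transcripts of CA3 neurons. The part of RNA from other cells in them was not tested.

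**Figure D1:**
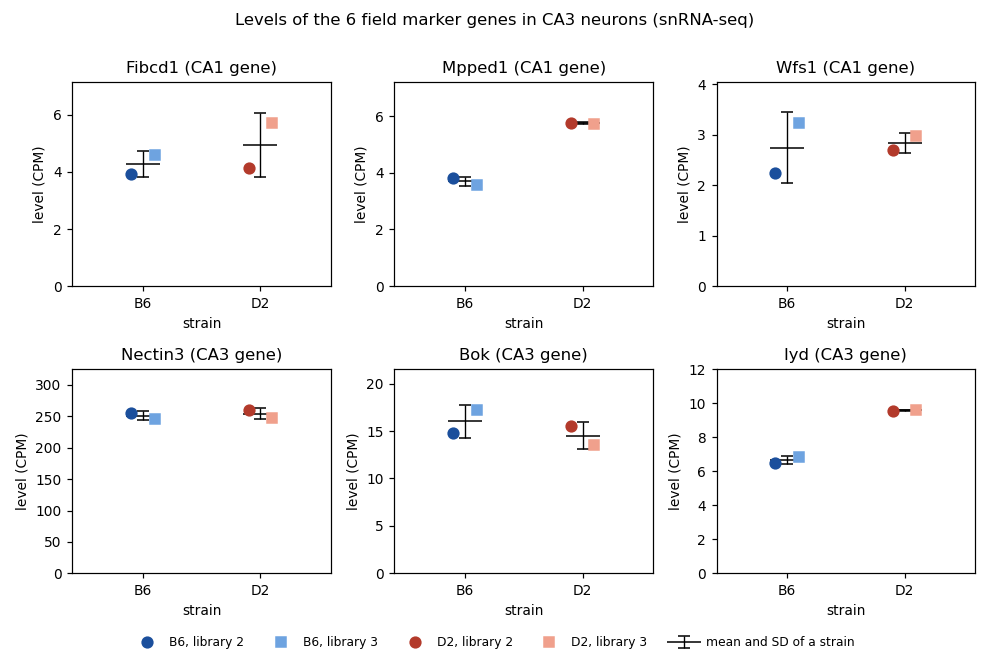
Each panel plots the level of 1 gene in CPM (vertical axis, from 0) in CA3 neurons of B6 and D2 (horizontal axis), with a point per library and a black bar at the mean of each strain with its SD. Nectin3 is near 252 CPM in all 4 libraries, and the strains are apart for Mpped1 and Iyd, with D2 higher.

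The strains were compared by edgeR's quasi-likelihood test, as log2 fold changes of D2 minus B6 with standard errors, and p was adjusted over all 16337 genes tested. No member passed an adjusted p of 0.05 of the 6 tested, where 32.1% of all genes did. That share includes genes without counts in 1 strain. With counts in both strains required, 0 of the 6 passed, where 3202 of 14802 genes did. By edgeR 2 of the 6 had an unadjusted p under 0.05, as had 6655 of the 16337 genes tested. By DESeq2 0 of 6 passed, where 3518 of 23363 genes did. None had an unadjusted p under 0.05 by DESeq2, where 5501 genes had. The members had 5 positive differences and 1 negative one, with a median of 0.13, against a median of 0.05 over all genes tested. In 2 of 6 the libraries of the strains did not overlap, where they did not in 64.6% of all genes tested.

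Mpped1 had the largest difference of the members, 0.63 (SE 0.29, unadjusted p = 0.0444, adjusted p = 0.112, edgeR), with means of 3.69 CPM in B6 and 5.74 in D2. Iyd followed at 0.53 (SE 0.23, unadjusted p = 0.0345, adjusted p = 0.0913, edgeR), with means of 6.652 and 9.58 CPM. Fibcd1 differed by 0.19 (SE 0.31, adjusted p = 0.689, edgeR) and Wfs1 by 0.06 (SE 0.37, adjusted p = 0.926, edgeR). On 103 and 63 counts these 2 errors leave room for a change of the size seen in Mpped1. Bok differed by -0.13 (SE 0.18, adjusted p = 0.644, edgeR), the single member that was lower in D2. Nectin3, with the most counts, differed by 0.02 (SE 0.08, adjusted p = 0.896, edgeR), and this error was the smallest of the 6.

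Some marker sums did not overlap between the strains in the same libraries. Among single genes, 64.6% of all genes tested did not overlap either. The vascular list (Col1a2, Slc6a13, Flt1) summed to 1.37 to 1.55 CPM in B6 and to 3.66 to 5.77 in D2, and the Cajal-Retzius list (Reln, Trp73, Ndnf) to 5.46 to 7.46 and 7.78 to 10.6. Oligodendrocyte markers (Mog, Mobp) summed to 12.6 to 16.2 CPM in B6 and to 8.01 to 10.6 in D2, and precursor markers (Pdgfra, Cspg4, Vcan) to 7.51 to 8.73 and 4.32 to 6.18. The excitatory markers (Slc17a7, Neurod6) were also apart, at 438.0 to 438.4 CPM in B6 and 458 to 479 in D2. The sums of the astrocyte and microglial lists overlapped between the strains, as did those of the CA3, CA1, dentate and inhibitory lists. None of these genes was at 0 over the 4 libraries. Their part in the differences of Iyd and Mpped1 was not tested.

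Of other genes known for the fields, the CA3 list (Grik4, Cpne4, Coch, Socs2, Plagl1, Homer3, Cdh24) held 2 of 7 that passed, 1 in each direction. The CA1 list (Pou3f1, Man1a, Spink8, Gpr161, Ccn3, Grp) held none of the 5 that were tested. Of all genes tested 32.1% passed, so the share in the CA3 list was near that of all genes. Pou3f1, with 19 counts, had too few for the test. By edgeR 1 of the 5, the secreted inhibitor Spink8, had an unadjusted p under 0.05, where 6655 of 16337 genes had. By DESeq2 0 of the CA1 list passed, where 3518 of 23363 genes did, and 0 had an unadjusted p under 0.05. The median difference was 0.05 over the CA3 list and -0.04 over the CA1 list.

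Cdh24, a cadherin gene, measured 25.1 and 18.1 CPM in B6 and 54.95 and 41.7 in D2. It was higher in both D2 libraries, with a log2 fold change of 1.16 (SE 0.16, adjusted p = 1.86e-05, edgeR). Homer3, which encodes a scaffold protein of the synapse, measured 54.3 and 47.3 CPM in B6 and 29.2 and 26.1 in D2. It was lower in both D2 libraries, at -0.88 (SE 0.13, adjusted p = 2.87e-05, edgeR). DESeq2 called both as well, with adjusted p of 2.76e-05 for Cdh24 and 0.000314 for Homer3. The kainate receptor gene Grik4, had 862 ± 58.6 CPM and a difference of 0.05 (SE 0.08, adjusted p = 0.675, edgeR), and Cpne4, a copine gene, had 607 ± 49.2 CPM and -0.12 (SE 0.08, adjusted p = 0.32, edgeR). Neither passed, and in both the strains overlapped.

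**Figure D2:**
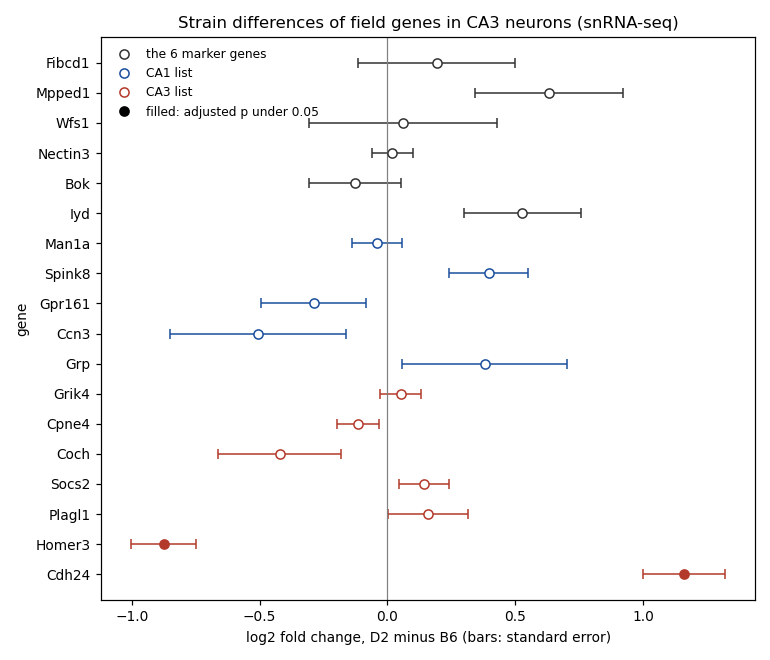
The plot gives the log2 fold change of D2 minus B6 (horizontal axis, bars for the standard error) of the 6 members in black, of the CA1 list in blue and of the CA3 list in red (vertical axis), with filled points for an adjusted p under 0.05. Homer3 at -0.88 and Cdh24 at 1.16 are the filled points, and Mpped1 and Iyd lie farthest right among the members.

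Accessibility was then read in Exc-CA3 over the peaks that overlapped a member from 2 kb before its start to 2 kb beyond its end. There were 52 such peaks of 300819, 23 at Nectin3, 13 at Mpped1, 8 at Fibcd1, 3 at Wfs1, 3 at Iyd and 2 at Bok, and all 52 passed the filter on counts. Of these 11 lay within 1 kb of an annotated start. Summed over its peaks Nectin3 had the most accessibility, 118 CPM, and Iyd the least, 8.72 CPM. Between them came Mpped1 (58.3), Fibcd1 (47.2), Bok (39.5) and Wfs1 (22.5), sums that grow with the number of peaks called at a gene.

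Per kb, the peaks over the promoters ranked otherwise than the transcripts. Nectin3 led on both, with a peak at chr16:46495960-46498794 that held its promoter, had 66.1 ± 6.24 CPM (SD, n = 4), or 23.3 CPM per kb, and took 55.9% of the sum over the gene. Wfs1, the gene with the lowest level per exon kb, came next per kb of peak, though in CPM its peak was slightly below that of Bok. Its promoter peak at chr5:36988303-36989537 had 19.97 ± 1.34 CPM, which is 16.2 CPM per kb, and held 88.7% of the sum over the gene. The promoter peak of Bok at chr1:93685333-93686964 had 20.7 ± 0.816 CPM (12.7 per kb), that of Fibcd1 at chr2:31845476-31846913 had 7.004 ± 0.756 (4.87 per kb) and that of Iyd at chr10:3540015-3541466 had 6.90 ± 0.895 (4.75 per kb). Mpped1, whose first start is the richest in CpG, was the least accessible there, with 4.49 ± 0.499 CPM or 1.85 per kb at chr15:83779362-83781791. Per span kb its transcript was the lowest of the members as well, but not per exon kb. The most accessible peak of Mpped1, at 17.6 CPM and 30.1% of the sum over the gene, lay in an intron, and so did the highest of Fibcd1 (12.6 CPM, 26.6%). These 2 intronic peaks were picked after their values were seen.

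Between strains 1 of the 52 peaks passed an adjusted p of 0.05 by edgeR, where 5.03% of all 298129 peaks tested did. An unadjusted p under 0.05 by edgeR was found in 4 of 52, and in 46140 of all peaks tested. DESeq2 called 0 of the 52, where it called 3642 of 248327 peaks. It gave 1 of the 52 an unadjusted p under 0.05, where 14404 of all peaks had one. There were 27 positive and 25 negative differences, with a median of 0.0044 against 0.0016 over all peaks tested. In 17 of the 52 the libraries of the strains did not overlap, 8 with D2 higher and 9 with D2 lower, where they did not in 44.0% of all peaks. The peaks of a gene lie side by side and are not independent of one another.

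The peak that passed was that over the promoter of Nectin3, which measured 61.5 and 59.9 CPM in B6 and 72.3 and 70.5 in D2. Accessibility was higher in both D2 libraries, with a log2 fold change of 0.23 (SE 0.06, adjusted p = 0.00599, edgeR), which is a small change measured on 4628 counts. With 1 library left out the log2 fold change by edgeR stayed between 0.21 and 0.25. Such a fit leaves 1 library in a strain, and calls over all peaks fell in each. These fits therefore cannot show on which libraries the call rested. DESeq2 gave 0.23 with an adjusted p of 0.157. The transcript of Nectin3, at 0.02 with an SE of 0.08, did not pass in the snRNA-seq libraries, and the remaining 22 peaks of the gene included 7 that were higher and 15 that were lower in D2. One of these, in an intron at chr16:46460577-46461000 and named after its value was seen, measured 1.497 and 2.01 CPM in B6 and 0.739 and 0.953 in D2, with a log2 fold change of -1.004 (SE 0.33, adjusted p = 0.0581, edgeR).

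At Mpped1, whose transcript had the largest difference of the members, both promoter peaks overlapped between the strains. The peak of the first start measured 4.99 and 3.81 CPM in B6 and 4.496 and 4.67 in D2 (0.04, SE 0.18, adjusted p = 0.952, edgeR), and that of the second start, at chr15:83784473-83785003, measured 1.05 and 1.11 in B6 and 0.801 and 1.19 in D2 (-0.08, SE 0.36, adjusted p = 0.955, edgeR). Of its 13 peaks 9 were higher and 4 lower in D2, and the pair with the lowest p at this gene, both in introns and named after their values were seen, had log2 fold changes of 0.32 (SE 0.12, adjusted p = 0.121, edgeR) and 0.45 (SE 0.18, adjusted p = 0.141, edgeR). At Iyd the promoter peak measured 6.88 and 6.09 CPM in B6 and 6.47 and 8.15 in D2 (0.18, SE 0.15, adjusted p = 0.632, edgeR), and the strains overlapped.

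The other promoter peaks also missed the threshold. That of Bok measured 21.1 and 21.6 CPM in B6 and 19.9 and 20.1 in D2 (-0.09, SE 0.09, adjusted p = 0.696, edgeR), and the strains did not overlap. That of Wfs1 measured 20.5 and 19.5 CPM in B6 and 18.4 and 21.5 in D2 (0.01, SE 0.09, adjusted p = 0.983, edgeR). That of Fibcd1 measured 7.32 and 5.96 CPM in B6 and 7.02 and 7.72 in D2 (0.14, SE 0.15, adjusted p = 0.724, edgeR). In the last 2 the strains overlapped. The other 4 peaks within 1 kb of a start, 2 at Nectin3, 1 at Fibcd1 and 1 upstream of Wfs1, had between 1.22 and 4.73 CPM and adjusted p of at least 0.925 by edgeR.

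**Figure D3:**
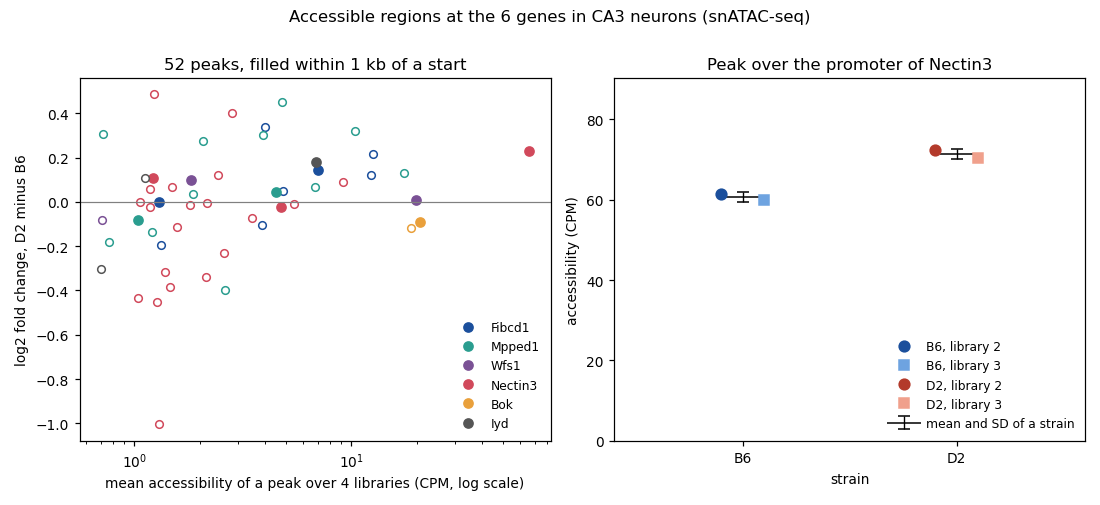
The left panel plots the log2 fold change of D2 minus B6 (vertical axis) of the 52 peaks against their mean accessibility in CPM (horizontal axis, log scale), coloured by gene and filled within 1 kb of a start. The right panel gives the peak over the promoter of Nectin3 in CPM (vertical axis, from 0) by strain and library, with the mean and SD of each strain, where D2 stands above B6 at 72.3 and 70.5 against 61.5 and 59.9 CPM.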

How the data were processed

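Nuclei of the ventral hippocampus of B6 and D2 males were profiled by snRNA-seq and snATAC-seq, with 2 libraries per strain and assay, and the 16 methylation samples of the series of 24 were not analysed here. Alignment by the authors used Cell Ranger 6.0.2 for snRNA-seq, with intronic reads kept, and Cell Ranger ATAC 2.0.0 for snATAC-seq, on mm10 for B6 and on mm10 with D2 bases put in for D2. They removed doublets, integrated and clustered the nuclei with Seurat 4.0.5, called peaks with MACS in each sample and merged them, and the GENCODE release is not given in the sources used here. The deposited values are raw counts, which the authors summed per gene or peak over the nuclei of a type in a library. Columns carry library numbers 2 and 3 where the labels number replicates 1 and 2, so a column was placed by its strain only and was not tied to a single sample. A strain was then given no more columns than it has samples, which left 1 type per table: the columns of Exc-CA3 were kept, since CA3 is a single type while CA1 is split into several, and 64 columns of the snRNA-seq table and 56 of the snATAC-seq table were not used. Exc-CA3 was chosen after values of other types had been seen. Levels across types, the genes most like each member, the sum of the CA1 types, differences between fields and peaks of other types were planned and not run. The tables of nuclei were not used, and barcodes were not analysed here.

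Exc-CA3 was fitted with edgeR 4.0.16 in R 4.3.3 (TMM scaling, filterByExpr for genes, at least 10 counts over the 4 libraries for peaks, quasi-likelihood F test, Benjamini-Hochberg over all features), at a threshold of 0.05. Standard errors were the log2 fold change divided by the root of the F value. The smallest p that an exact permutation of 2 libraries against 2 allows is 0.33. As about 2 animals were pooled per library, p-values measure the spread between these pools. Depth was 4267129 to 7195661 counts per library in snRNA-seq, which sets the precision of low genes.

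On simulated data with 200 features changed 2-fold, edgeR recovered 89.5% and DESeq2 1.42.0 recovered 64.5% of genes in Exc-CA3 (16337 genes), and edgeR 97.5% of peaks (298129 peaks). False calls made up 5.79% of the genes called by edgeR, 0% of those by DESeq2 and 1.02% of the peaks. The changed features were drawn only from those above a floor of mean CPM, with 1 fixed spread for all. Mpped1 (4.72 CPM), Fibcd1 (4.604) and Wfs1 (2.79) lay below that floor, so these shares do not apply to them. Most of the member peaks lay below it as well, with both promoter peaks of Mpped1 (4.49 and 1.04 CPM) among them. The share of peaks recovered does not apply to those peaks. Alternatives were DESeq2, RLE scaling, no filter beyond 1 count, only genes with counts in both strains, the library number as a block, and each library left out.

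The 6 members and all lists were chosen with earlier results of these data known, and genes of the lists that are not named are not reported here. Named beside the members were the genes of the 2 field lists that passed, and peaks within 1 kb of an annotated start or past the threshold, with others where said. Older symbols of the members had no row in the table. Coordinates came from GENCODE vM21 on GRCm38 and sequences from RefSeq (GRCm38.p6). Python 3.11.15, numpy 2.4.6, pandas 2.3.3 and matplotlib 3.10.9 were used.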

Additional observations from a re-analysis of the deposited data

How the results depend on the processing

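No member was called in snRNA-seq under any of the 5 alternatives or with any library left out (0 in each, also with the library number as a replicate block). The 1 peak call became 0 with DESeq2, 2 with the replicate block and 0 with any library left out. Library numbers did not pair the samples, with a correlation of same-numbered deviations of 0.032 in snRNA-seq and 0.028 in snATAC-seq.

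Differences near 0 had no stable sign. Nectin3 had -0.000101 without a filter and -0.0218 to 0.0512 with a library left out, Wfs1 -0.20 to 0.32 and Fibcd1 -0.0389 to 0.42 with a library left out. Mpped1, Iyd and Bok kept their sign throughout, with adjusted p by edgeR of at least 0.0817, and Homer3 and Cdh24 stayed past the threshold in every alternative.

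Over all features DESeq2 called 3518 genes and 3642 peaks against 5241 and 14997 by edgeR. Requiring counts in both strains left 3202 of 14802 genes. Without D2 library 2 or 3, 239 or 122 peaks were called, without B6 library 2 or 3, 8177 or 9263. Of the genes called, 3129 were higher and 2112 lower in D2, and 1448 and 1754 with counts required in both strains. The causes were not tested. Other settings for levels across types, the summed CA1 types and the contrasts of fields were not run. Low counts limit Wfs1, Fibcd1 and Mpped1.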
